A study of Mus musculus with 7 samples.

Results

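Grp encodes gastrin-releasing peptide, and Grpr encodes the receptor that binds it. These 2 genes, of 19614 listed in at least 1 of 7 single-cell libraries of mouse cortex, are described here across cell types, cortical areas and genotypes. Grp was chosen from these data because its level differed between the prefrontal cortex and the motor cortex, so its values by area are a description and carry no test. Grpr was taken along as its receptor. Both genes were listed in all 7 libraries.

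The libraries came from B6129SF1/J mice at postnatal day 30, housed in 12 h of light and 12 h of dark, and were made with 10x Genomics droplet chemistry that reads the 3' end of transcripts. The ventromedial prefrontal cortex (PFC) or the motor cortex (MC) was dissected by hand and dissociated. Control mice (CTRL) carried Opn4-Cre/+; Brn3b-+/+, which leaves the melanopsin-expressing retinal ganglion cells intact. Ablated mice (DTA) carried Opn4-Cre/+; Brn3b-zDTA/+, in which Cre expressed from the melanopsin gene Opn4 switches on diphtheria toxin subunit A from the Brn3b gene in cells that use both, so all groups share the Opn4-Cre allele. There were 2 PFC CTRL libraries, 3 PFC DTA libraries, 1 MC CTRL library and 1 MC DTA library. The sources used here do not say whether animals were pooled within a library. The p-values below cover no more than the spread between these libraries. In edgeR that spread is estimated for each gene with the spread of all tested genes drawn in. In the comparisons of cells with and without Grp, this shared spread took most of the weight for many genes.

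Gastrin-releasing peptide is a member of the bombesin-like peptide family. It is cut from a precursor, stored in dense core vesicles and released from neurons. Its receptor couples to Gq proteins and through phospholipase C raises inositol trisphosphate, calcium and protein kinase C activity. In the cortex the peptide gene is known from excitatory neurons and the receptor gene from inhibitory neurons that express vasoactive intestinal peptide (Vip).

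In GRCm38 coordinates (GENCODE M21), Grp (ENSMUSG00000024517.17) lies on the plus strand of chromosome 18 from 65872820 to 65886596 and has 3 transcripts of 2 to 4 exons. A gene on the opposite strand, AC152076.4, overlaps it, and the sources used here do not say whether counting used strand. Grpr (ENSMUSG00000031364.2) lies on the minus strand of chromosome X from 163513904 to 163549677, with 1 transcript of 3 exons and no overlapping gene.

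The tables held 32985 cells, of which 31869 remained after called doublets were removed. Libraries differed in depth, from 6180059 to 30972905 unique molecular identifiers (UMIs) in total and from 1360 to 4924 UMIs per cell at the median, and 602 cell barcodes occurred in more than 1 library. PFC DTA replicate 3 stood apart: 39.7% of its cells stayed without a cell type name, against 1.41% to 14.8% elsewhere, and its excitatory neurons held 60609 CPM (counts per 1000000 UMIs of the same cells) of Malat1, a nuclear RNA, against 20603 to 28462 in the others. The Grp differences between areas within subtypes, those between genotypes and the counts of calls are also given without it. Clusters were made without Grp and Grpr, and 12597 cells fell in clusters with excitatory markers (among them Slc17a7 and Neurod6), 9234 of them in the PFC and 3363 in the MC. The groups of cells below are therefore defined without the genes described.

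Grp had its highest mean level among the cell classes in excitatory neurons in both areas, and it was far higher in the PFC than in the MC. Summed over all excitatory neurons of a library, its level was 93.6 and 104.8 CPM in the 2 PFC CTRL libraries and 88.2, 91.1 and 116.7 CPM in the 3 PFC DTA libraries. It was 16.5 CPM for the MC CTRL and 13.7 CPM for the MC DTA library. Every PFC library lay above both MC libraries. The means were 98.9 ± 11.8 CPM (SD, n = 5) and 15.1 ± 1.99 CPM (SD, n = 2), a 6.56-fold higher level in the PFC. The counts behind these values were 874, 1925, 310, 1982 and 1780 Grp UMIs in the PFC and 246 and 168 in the MC. Without PFC DTA replicate 3 the log2 difference was -2.63, against -2.72 (SE 0.17) with it.

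The share of excitatory neurons with a Grp UMI was also higher in every PFC library than in both MC libraries. With every cell thinned to 2000 UMIs, it was 18.3% and 16.6% in the PFC CTRL libraries, 13.8%, 16.6% and 19.9% in the PFC DTA libraries, 3.08% (exact binomial 95% interval 2.36 to 3.96) in MC CTRL and 3.35% (2.13 to 4.98) in MC DTA. Before thinning the PFC shares ran from 21.5% to 42.8% and the MC shares were 6.59% and 11.8%, at median depths of 3557.5 to 15840 UMIs per excitatory neuron. Intervals cover counting error only.

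Oligodendrocytes, which are not a known source of the peptide, had a Grp UMI in 0 to 3.18% of cells in the PFC libraries and in 0.862% and 0.602% in the MC, at median depths of 2394 to 8654 UMIs. In CPM the level in oligodendrocytes was 0 to 5.69 in the PFC and 0.685 to 1.76 in the MC. Inhibitory neurons had 6.49 CPM on average in the PFC (0 to 12.9) and 1.14 and 1.39 CPM in the MC. Microglia had 2.97 to 19.3 CPM in the PFC and 0 counts in 633 MC cells. The PFC and MC ranges overlapped in oligodendrocytes and inhibitory neurons and did not in microglia, and every one of these PFC values lay below the PFC excitatory level. Oligodendrocyte precursors had 4.81 to 24.4 CPM in the PFC and 0 to 3.13 CPM in the MC, without overlap. Pericyte-like cells had 0 to 143.5 CPM in the PFC (mean 36.9) and 0 counts in 155 MC cells. Their highest PFC library exceeded every PFC level summed over all excitatory neurons.

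Within the PFC, Grp was highest in the neurons resembling near-projecting cells of layers 5 and 6 (L5/6 NP-like), a sparse deep-layer class marked by Tshz2, Sla2 and Slc17a8, and all 8 of their markers were detected. Their level was 543.2 and 264.2 CPM in the PFC CTRL libraries and 588.2, 234.2 and 790.9 CPM in the PFC DTA libraries. The PFC libraries thus spread more than 3-fold among themselves, with both a CTRL and a DTA library at the low end. In MC CTRL and MC DTA the same cluster had 59.2 and 101.8 CPM, so all PFC libraries were higher. The means were 484 ± 234 (SD, n = 5) and 80.5 ± 30.1 CPM (SD, n = 2), a difference of 6.01-fold, or -2.59 on the log2 scale. Without PFC DTA replicate 3 it was -2.34.

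Neurons resembling intratelencephalic cells of layers 2 and 3 (L2/3 IT-like), which project to other cortical areas, came next. They had 171.5 and 163.1 CPM in the PFC CTRL libraries, 96.9, 157.6 and 177.1 CPM in the PFC DTA libraries, 10.1 CPM in the MC of CTRL and 9.88 CPM in that of DTA mice. The 2 MC libraries were nearly equal, and the lowest PFC library was well above both. The mean was 153 ± 32.4 CPM (SD, n = 5) in the PFC and 10.0 ± 0.17 CPM (SD, n = 2) in the MC, a 15.3-fold difference, or -3.94 on the log2 scale and -3.88 without PFC DTA replicate 3. With cells thinned to 2000 UMIs, a Grp UMI was seen in 17.7% to 31.2% of PFC cells and in 1.80% and 1.67% of MC cells.

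Layer 5 extratelencephalic-like neurons (L5 ET-like), the class that projects out of the cortex, had 149.4 and 174.0 CPM in the PFC CTRL libraries and 84.8, 118.9 and 158.6 CPM in the PFC DTA libraries. No Grp count was found in the 23 MC cells of this cluster. Against a floor of 3 counts over both MC libraries (6.93 CPM), the PFC mean of 137 ± 35.5 CPM (SD, n = 5) was at least 19.8-fold higher, and without PFC DTA replicate 3 at least 19.0-fold. So few MC cells leave the MC level of this class poorly measured.

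Corticothalamic-like neurons of layer 6 (L6 CT-like) were the exception to the difference between areas. Their level was 72.1 and 61.4 CPM in the PFC CTRL libraries, 98.7, 47.8 and 127.5 CPM in the PFC DTA libraries, 47.5 CPM in the MC of CTRL and 77.9 CPM in that of DTA mice. Both MC values fell near or inside the range of the PFC libraries. The means of 81.5 ± 31.8 (SD, n = 5) and 62.7 ± 21.5 CPM (SD, n = 2) differed by 1.30-fold, or -0.38 on the log2 scale, and by -0.16 without PFC DTA replicate 3. Leaving out each library in turn moved this log2 difference between -0.78 and -0.07.

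The L6 CT-like neurons formed 3 clusters, and these did not share 1 pattern. Cluster 9, led by Rprm and Ctgf and with a high score for layer 6b markers as well, had a mean of 66.4 CPM in the PFC (44.4 to 90.3) and 67.0 and 91.5 CPM in the MC. Cluster 3, led by Syt6 and Foxp2, had 90.9 CPM in the PFC (33.8 to 206) and 37.7 and 65.5 CPM in the MC. Cluster 10, whose leading genes include Nts, had 183 CPM in the PFC (30.6 to 392.3) and 89.8 and 60.8 CPM in the MC. The ranges of the areas overlapped in each of the 3.

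The remaining intratelencephalic classes carried less Grp. L4/5 IT-like neurons had 18.7 and 56.7 CPM in the PFC CTRL libraries and 64.9, 61.8 and 57.7 CPM in the PFC DTA libraries, and 2 counts in 401 MC cells. L6 IT-like neurons had 9.62 to 41.5 CPM in the PFC, 8.69 CPM in MC CTRL and 0 in MC DTA. L5 IT-like neurons had 8.50 to 26.5 CPM in the PFC and no count in 150 MC cells, so that the PFC mean of 17.1 ± 7.28 CPM (SD, n = 5) was at least 11.3-fold higher (11.6-fold without PFC DTA replicate 3). Excitatory neurons that got no subtype name had 28.7 to 56.2 CPM in the PFC and 5.95 and 5.07 CPM in the MC.

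**Figure D1:**
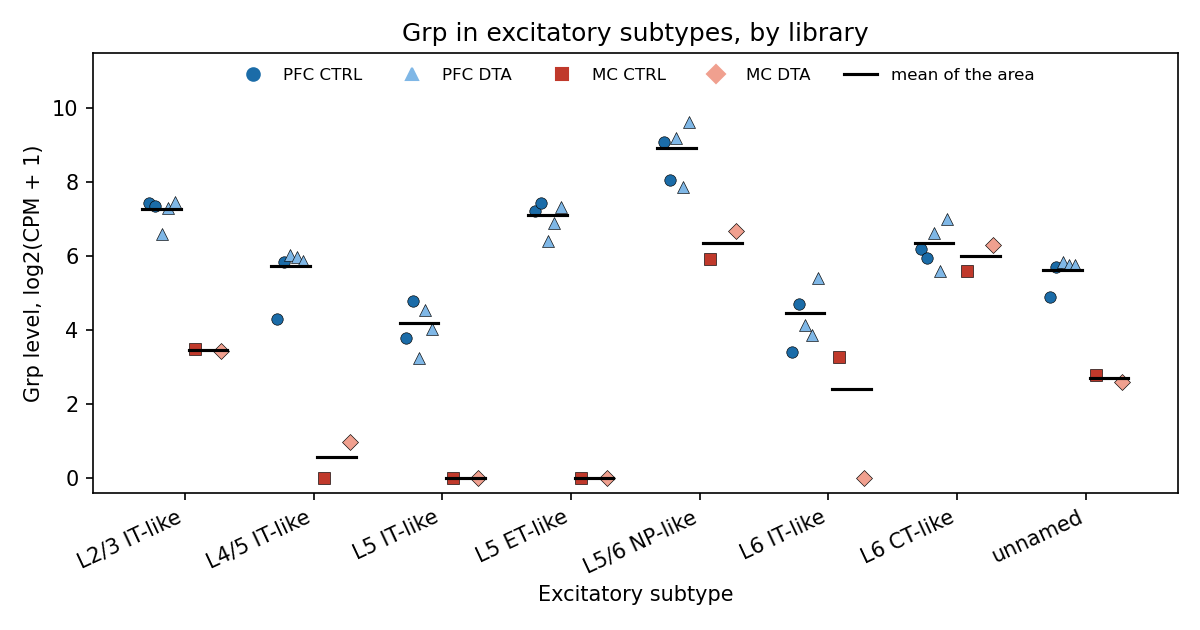
Grp level per library in each excitatory subtype, as log2(CPM + 1), with PFC libraries on the left and MC libraries on the right of each subtype and bars at the mean CPM of the area. L5/6 NP-like neurons were highest in the PFC (484 CPM), and L6 CT-like neurons were the subtype in which the areas overlapped.

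In the order of PFC means, L5/6 NP-like neurons exceeded L2/3 IT-like neurons in 5 of 5 libraries with no overlap of the ranges. L2/3 IT-like neurons exceeded L5 ET-like neurons in 4 of 5 libraries, L5 ET-like exceeded L6 CT-like neurons in 4 of 5, and L6 CT-like exceeded L4/5 IT-like neurons in 4 of 5, each with overlapping ranges. L4/5 IT-like neurons were above L6 IT-like neurons in 5 of 5 libraries although the ranges overlapped, and L6 IT-like were above L5 IT-like neurons in 2 of 5. The last pair was not separated by the spread over libraries. Without PFC DTA replicate 3 the first pair kept its order in 4 of 4 libraries with no overlap, and the other pairs overlapped as before.

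The L2/3 IT-like neurons formed 3 clusters, described here by their Grp levels with no test between them. Cluster 2, led by Ntf3, Matn2 and Otof, had 320.0 and 253.2 CPM in the PFC CTRL libraries, 138.5, 210.6 and 239.9 CPM in the PFC DTA libraries, 11.4 CPM in the MC of CTRL and 16.2 CPM in that of DTA mice. Cluster 5, led by Aldh1a3 and Calb1, had 194.4, 177.2, 104.4, 208.3 and 165.9 CPM in the same PFC libraries and 12.7 and 7.46 CPM in the MC. Cluster 0, led by Stard8, Myh7 and Rasgrf2, had 132.1, 118.5, 81.2, 117.9 and 133.0 CPM in the PFC and 9.19 and 10.4 CPM in the MC. Cluster 0 was below cluster 2 in every library of both areas, and the MC values of all 3 lay between 7.46 and 16.2 CPM. In the MC cluster 2 held 11 Grp UMIs in 161 cells and cluster 0 held 51 in 541. So few counts do not settle the order of the clusters in the MC.

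The different levels and cell numbers together set where the transcripts were found. In the PFC, L2/3 IT-like neurons held 40.9% of the excitatory Grp UMIs (SD 6.37, n = 5) and 26.9% of all excitatory UMIs. L5/6 NP-like neurons held 15.7% of the Grp UMIs with 3.45% of all UMIs, L6 CT-like neurons 13.2% with 15.8%, and L5 ET-like neurons 12.5% with 9.07%. In the MC, L6 CT-like neurons held 61.4% and 48.8% of the Grp UMIs in the CTRL and DTA libraries, and L2/3 IT-like neurons 21.1% and 26.2%, although the latter held 35.3% of all excitatory UMIs on average. The main holder of Grp transcripts was thus the L2/3 IT-like class in the PFC and the L6 CT-like class in the MC.

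**Figure D2:**
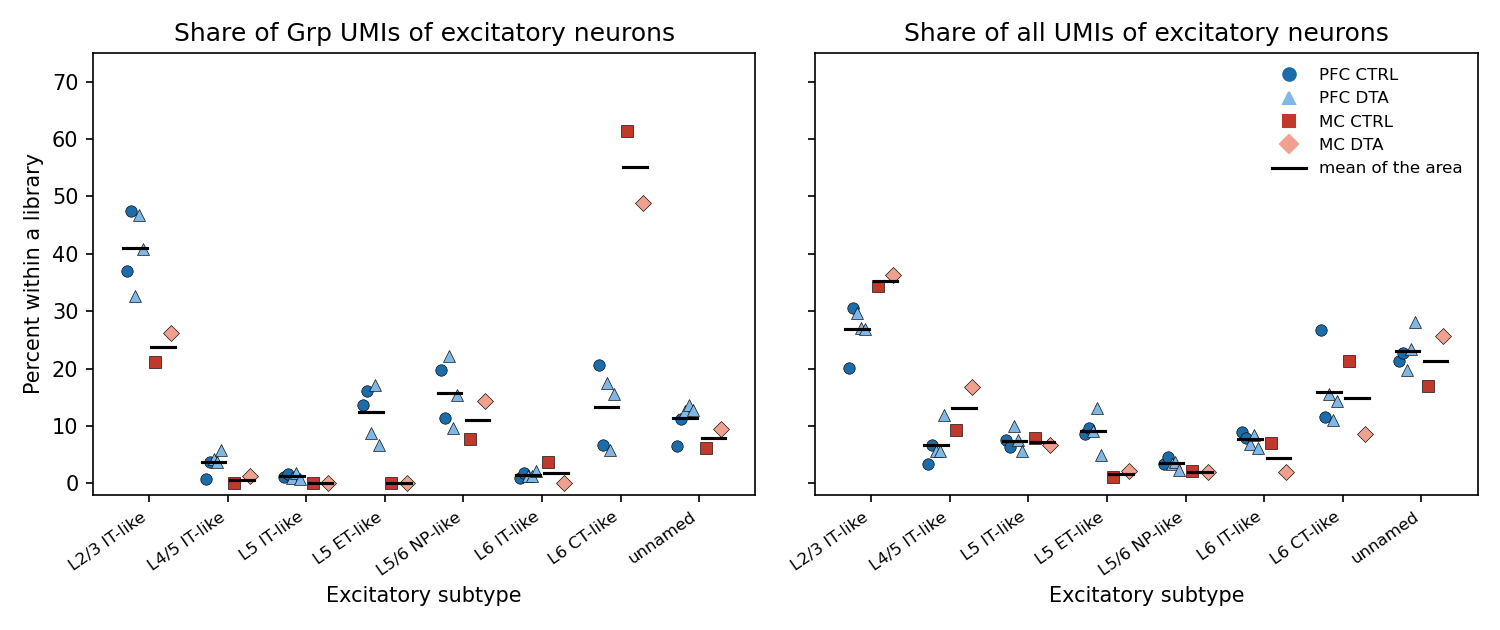
Percent of a library's excitatory Grp UMIs (left) and of all its excitatory UMIs (right) found in each subtype; points are libraries and bars are area means. L2/3 IT-like neurons held a mean of 40.9% of Grp UMIs in the PFC and L6 CT-like neurons 55.1% in the MC.

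The mix of clusters differed between the areas, and the Grp difference was recomputed with 1 mix in all libraries. With the mean PFC mix, the levels were 101.2 ± 15.1 CPM (SD, n = 5) in the PFC and 17.7 ± 2.79 CPM (SD, n = 2) in the MC, a log2 difference of -2.51. With the MC mix they were 93.5 and 15.8 CPM, a log2 difference of -2.57. With each library's own mix the log2 difference of the means was -2.71. MC levels of single clusters rest on few counts, for example 11 Grp UMIs in L2/3 IT-like cluster 2 and 0 in the 23 L5 ET-like cells. The part of the cluster mix in the Grp difference was not tested.

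Markers of other cells were read in the same excitatory sums. The 7 astrocyte markers summed to 481 to 701 CPM in the PFC libraries and 657 and 767 CPM in the MC, the 7 oligodendrocyte markers to 20.6 to 67.7 and 31.2 to 116 CPM, and the 7 microglia markers to 21.8 to 32.2 and 17.6 to 26.3 CPM. The 7 inhibitory neuron markers summed to 8.89 to 39.3 CPM in the PFC and 13.8 to 38.1 CPM in the MC, the 7 endothelial markers to 14.3 to 49.8 and 24.7 to 35.2 CPM, and the 6 red blood cell markers reported here to 47.7 to 140.6 and 101.7 to 155 CPM. The ranges of the areas overlapped for each of these 6 lists over all excitatory neurons. At most 1 inhibitory, 1 endothelial and 2 red blood cell markers were at 0 in a library, and 0 of the other 3 lists.

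Within subtypes the astrocyte list did not overlap between areas in 2 of the 3 classes read. It summed to 298 to 420 CPM in L2/3 IT-like neurons of the PFC against 496 and 541 CPM in the MC, and to 802 to 1057 CPM in L5/6 NP-like neurons of the PFC against 1137 and 1231 CPM in the MC, so it was higher where Grp was lower. In L6 CT-like neurons it overlapped, at 917 to 1192 and 922 to 1162 CPM, and the other 5 lists, with the red blood cell list over the 6 members reported here, overlapped in all 3 classes. The part of these markers in the Grp difference was not tested.

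Nmb, which encodes neuromedin B, the other bombesin-like peptide of mammals, did not share the pattern of Grp. Its excitatory level was 2.04 and 3.43 CPM in the PFC CTRL libraries, 2.28, 2.21 and 3.87 CPM in the PFC DTA libraries, and 2.41 and 3.01 CPM in the MC. The areas overlapped, and edgeR's quasi-likelihood test gave a log2 difference of -0.05 (SE 0.33, adjusted p = 0.964). The receptors Nmbr and Brs3 were not analysed here.

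Ablation of the retinal cells left no detectable difference in Grp. Over all excitatory neurons the means were 99.2 ± 7.94 CPM (SD, n = 2) for the CTRL libraries and 98.7 ± 15.7 CPM (SD, n = 3) for the DTA libraries. The edgeR log2 difference of DTA minus CTRL was 0.04 (SE 0.16, 95% interval -0.32 to 0.40, adjusted p = 1.0). In L2/3 IT-like neurons the means were 167 ± 5.90 (SD, n = 2) and 144 ± 41.8 CPM (SD, n = 3), with a log2 difference of -0.15 (SE 0.21, -0.61 to 0.31) and an edgeR adjusted p of 1.0. In L5/6 NP-like neurons they were 404 ± 197 (SD, n = 2) and 538 ± 282 CPM (SD, n = 3), with a log2 difference of 0.46 (SE 0.50, -0.67 to 1.59) and the same adjusted p. The genotypes overlapped in all 3 sets of cells, and the interval in L5/6 NP-like neurons still allows a difference above 2-fold. Without PFC DTA replicate 3 the 3 log2 differences were -0.10, -0.32 and -0.09, in the order all excitatory, L2/3 IT-like and L5/6 NP-like.

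The share of excitatory neurons with a Grp UMI, thinned to 2000 UMIs, was 17.4% ± 1.21 (SD, n = 2) for the CTRL libraries and 16.8% ± 3.01 (SD, n = 3) for the DTA libraries. A two-sided exact permutation test over libraries gave p = 0.8 for this difference, where the smallest p this design allows is 0.1. In L5/6 NP-like neurons it was 45.6% ± 21.1 (SD, n = 2) and 58.9% ± 26.8 (SD, n = 3), with an exact permutation p of 0.6. No gene of 13922 tested in excitatory neurons, of 6343 in L5/6 NP-like or of 11830 in L2/3 IT-like neurons passed an adjusted p of 0.05 between genotypes in edgeR (0.0% called), and DESeq2 called 0 in each. At an unadjusted p under 0.05, edgeR had 253, 135 and 295 genes. No tested member of the gene lists used below passed the threshold between genotypes.

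Grpr was found in a different set of cells. Its transcripts were concentrated in Vip-like inhibitory neurons, which had 36.5 and 27.0 CPM in the PFC CTRL libraries, 21.1, 35.6 and 45.1 CPM in the PFC DTA libraries, 43.5 CPM in the MC of CTRL and 26.0 CPM in that of DTA mice. The areas and the genotypes overlapped. These levels rest on 7, 9, 1, 9 and 11 UMIs in the PFC and 10 and 7 in the MC, so that 1 library is a single count. A Grpr UMI was seen in 14.7%, 3.80%, 4.35%, 14.8% and 12.0% of 34, 237, 23, 54 and 50 PFC Vip-like cells, and in 9.09% (exact binomial 95% interval 4.24 to 16.6) and 16.3% (6.81 to 30.7) of 99 and 43 MC cells. Their median depth was 1094 to 6378 UMIs, and the lowest share came from the shallowest of these libraries.

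The other cells had few or no Grpr counts. Sst-like and Pvalb-like neurons had 0 in every library, at median depths of 1125 to 13387 UMIs, and 0 of 200 Pvalb-like cells in MC CTRL allows a share of cells with a UMI of up to 1.5%. Sncg-like neurons had 2 counts in PFC DTA replicate 3 and 1 in each MC library, and Lamp5-like neurons had 1 in PFC CTRL replicate 2. Excitatory neurons, the class with the highest mean Grp level, had 2 Grpr counts in PFC CTRL replicate 2 among 18363663 UMIs and 0 in the other 6 libraries. For the 2624 excitatory neurons of MC CTRL this allows a share with a UMI of up to 0.114%. Astrocytes had 1, 1 and 3 counts in 3 PFC libraries and 0 in the MC. Grpr was among the 10 genes that most marked the Vip-like cluster, although it had been left out of the clustering. Grpr was too rare for any test between genotypes or areas.

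**Figure D3:**
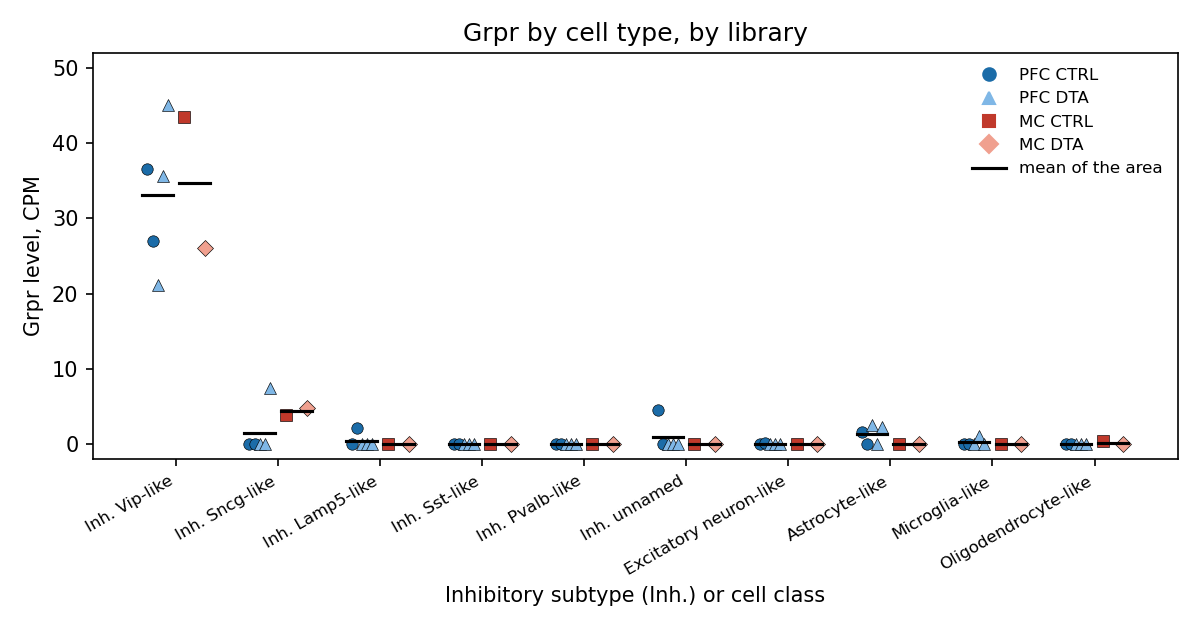
Grpr level in CPM in inhibitory subtypes and other cell classes, with points for libraries and bars for area means. Vip-like neurons lay between 21.1 and 45.1 CPM in all 7 libraries.

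The genes that act downstream of such a receptor, or that make and release a peptide, were read in the same excitatory neurons with the edgeR comparison of MC against PFC, in which 435 of 14142 genes (3.08%) were higher and 348 (2.46%) lower in the MC (5.54% in all). The total fell to 92 without MC CTRL and to 92 without MC DTA, and was 930 (522 higher, 408 lower) without PFC DTA replicate 3. Of 17 tested genes for Gq and phospholipase C signalling, 4 were higher in the MC and 2 lower. Prkca (protein kinase C alpha) was higher by 0.83 on the log2 scale (SE 0.12, adjusted p = 0.00208) and Plcb4 (phospholipase C beta 4) by 0.80 (SE 0.14, adjusted p = 0.00696). Plcb1 and Rgs4 were higher by 0.52 and 0.67. Rgs2, a regulator that dampens Gq signalling, was lower by 0.60 (log2 difference -0.60, SE 0.12, edgeR adjusted p = 0.0154), and so was the cation channel gene Trpc5 (-0.87). The list's median log2 difference was 0.25, against -0.01 over all genes.

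Of 18 tested genes for peptide processing and dense core vesicles, Cadps2 (1.01, SE 0.15, edgeR adjusted p = 0.00270) and Cadps (0.53), which prime such vesicles for release, were higher in the MC, and the vesicle protein gene Syt4 was lower (-0.65). The other 15 did not pass, including the convertase gene Pcsk2 (0.59, adjusted p = 0.154). The list's median was 0.06, and over all genes 3.08% were higher and 2.46% lower in the MC. Other neuropeptide genes had 18 tested members and a median of -0.32. Of these, 3 were lower in the MC: Trh (-1.77, SE 0.36), Cort (-1.52, SE 0.24) and Nppc, the C-type natriuretic peptide gene (-1.42, SE 0.23, edgeR adjusted p = 0.00644). Trh and Cort were low, at means of 3.15 and 6.55 CPM over the 7 libraries, against 74.0 CPM for Nppc. Their levels are bulk sums over a class, so a change in the mix of subtypes enters them.

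The next 2 lists are read against the same 3.08% of all genes higher and 2.46% lower in the MC. Of 16 activity-regulated genes, Inhba was higher in the MC (0.62, edgeR adjusted p = 0.0221). The other 15 did not pass, although the list's median was -1.25, and Fos stood at -1.51 (SE 0.35, adjusted p = 0.0513). Of 24 layer and projection factors, 6 were higher, among them Cux1 (1.67, SE 0.12), Pou3f2 (1.28), Sox5 (0.87) and Emx1 (0.76), and 2 were lower, Fezf2 (-1.16, SE 0.13) and Tshz2 (-1.27, SE 0.29). Fezf2 and Tshz2 are genes of the deep-layer projection neurons in which PFC Grp was high.

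Genes that go with Grp from cell to cell were sought by splitting each PFC library's cells into those with at least 1 Grp UMI and those with 0, and by testing the summed counts with edgeR with the library as a block. The split follows depth as well as expression: among L2/3 IT-like neurons, Grp-positive cells had the higher median UMI count in 4 of 5 libraries, at 0.976 to 1.53 times that of negative cells. When cells were thinned to 2000 UMIs before the split, the positive cells were the shallower in the original counts in 5 of 5 libraries. Thinned values are given below for the genes described at length that could be tested there, since many genes had too few counts after thinning. Grp itself was left out of these tables.

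L2/3 IT-like neurons, with 1243 positive and 1333 negative cells, gave more calls than the other 2 subtypes tested. Of 10044 genes, 878 were higher (8.74%) and 739 lower (7.36%) in positive cells. DESeq2 called 580 and thinned cells gave 48 of 5205, 852 were called without PFC DTA replicate 2 and 1356 without PFC DTA replicate 3. Among the 10 largest differences upward were Aldh1a3, which makes retinoic acid, Gadd45g, a stress and activity-inducible gene, Npas4 and Fos, transcription factors induced by activity, the glutathione transferase genes Gstm7 and Gstm1, and the neuroglobin gene Ngb. Among the 10 largest downward were Adcyap1, the gene for the peptide PACAP, Gfra2, the receptor for neurturin, the chemokine gene Cxcl14, the matrix gene Npnt, the guidance gene Efna5 and the signalling inhibitor gene Spry2.

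Aldh1a3 had 55.8, 28.6, 53.3, 41.6 and 35.9 CPM in the positive cells of PFC CTRL replicates 1 and 2 and PFC DTA replicates 1, 2 and 3. In the negative cells of the same libraries it had 11.4, 17.6, 14.8, 5.35 and 11.4 CPM. Its summed level was higher in positive cells in 5 of 5 libraries, a direction that the choice of named genes required. The sums of the 2 sets of cells did not overlap. The log2 difference was 1.68 (SE 0.24, edgeR adjusted p = 9.52e-05). Aldh1a3 also leads cluster 5, whose Grp level was above that of cluster 0, and within cluster 5 alone its difference was 1.75 (SE 0.26, adjusted p = 3.27e-07). It had too few counts to be tested in thinned cells.

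Gadd45g had 930.6, 769.5, 932.0, 803.7 and 740.8 CPM in positive cells and 328.9, 404.1, 582.3, 250.9 and 369.2 CPM in negative cells. The summed level in the positive cells of every library lay above that in the negative cells of all. The log2 difference was 1.19 (SE 0.17, edgeR adjusted p = 0.0152). It was 0.58 in thinned cells (adjusted p = 2.33e-10), 0.90 in cluster 0 alone (adjusted p = 9.02e-14) and 0.84 in cluster 5 alone (adjusted p = 0.118). Both MC libraries had it higher in positive cells as well, at 201.6 against 62.7 CPM and 98.1 against 83.0 CPM. The MC L2/3 IT-like neurons held 96 Grp UMIs in 981 cells, so their positive cells, here and below, were few.

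Adcyap1 had 27.5, 29.8, 9.99, 26.7 and 29.6 CPM in positive cells and 50.6, 44.9, 48.5, 54.0 and 99.0 CPM in negative cells. Every positive value was below every negative value. The log2 difference was -1.12 (SE 0.14, edgeR adjusted p = 2.39e-08), -1.03 in thinned cells, and -1.11 and -1.10 in clusters 0 and 5 alone. In the MC it was 11.6 against 40.0 CPM and 3.50 against 39.9 CPM, again lower in positive cells. These MC values rest on few positive cells and few counts.

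Of the 20 named genes, 12 had the same direction in both MC libraries, whose positive cells were few. In thinned cells 7 could be tested. All 7 had the same direction there, and 3 passed the test (Gadd45g, Wscd1 and Adcyap1). Ngb did not, at 0.16 (edgeR adjusted p = 0.907). Within cluster 0 alone, 12 could be tested, 12 had the same direction and 9 passed the test; within cluster 5 alone these numbers were 18, 18 and 14. Npas4 and Fos varied more between these settings. Npas4 differed by 1.12 over all L2/3 IT-like neurons, by 0.39 in cluster 0 (edgeR adjusted p = 0.222), by 0.71 in cluster 5 (adjusted p = 1.90e-09) and by 0.25 in thinned cells (adjusted p = 0.53). Fos differed by 0.84 over all, by 0.07 in cluster 0 (adjusted p = 0.854), by 0.59 in cluster 5 and by 0.30 in thinned cells (adjusted p = 0.221).

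**Figure D4:**
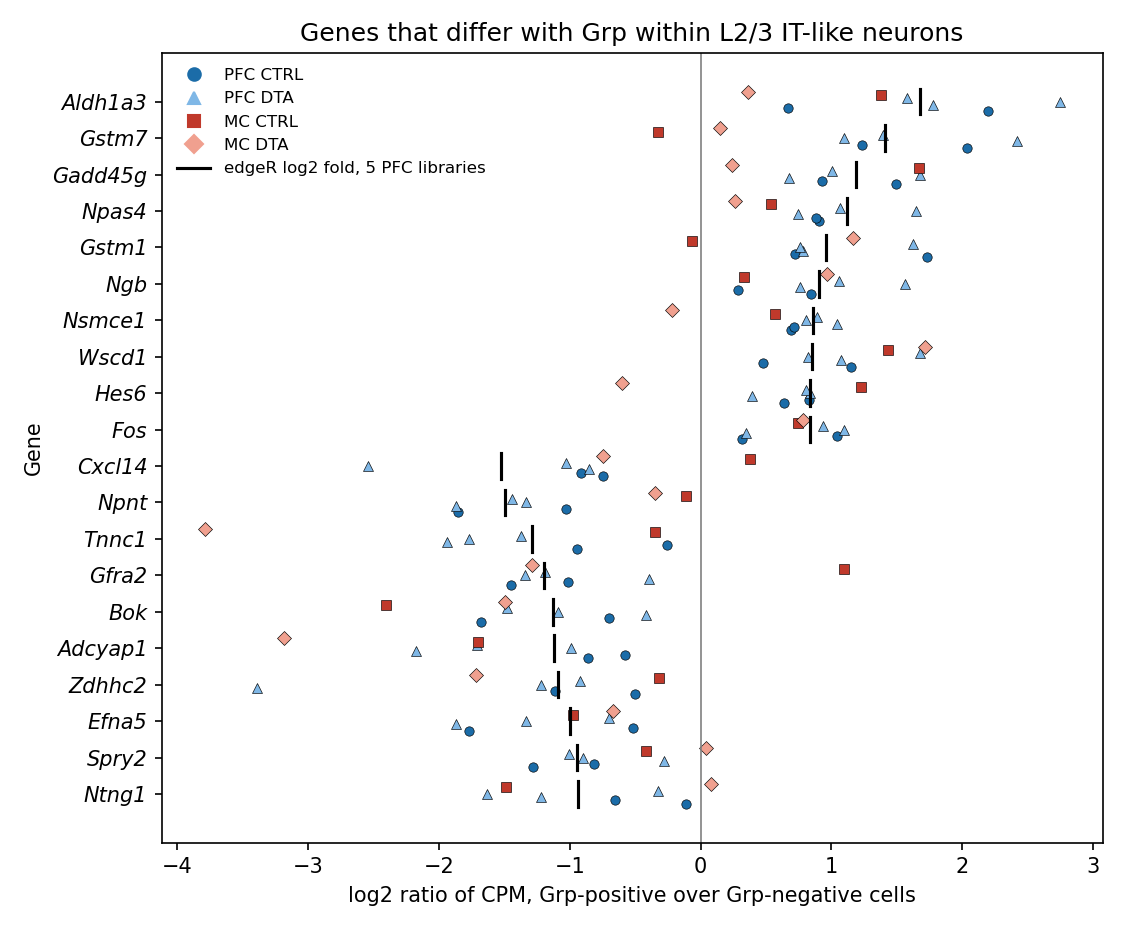
Log2 ratio of CPM in Grp-positive over Grp-negative L2/3 IT-like neurons for the 20 named genes; points are libraries and black ticks are the edgeR values from the 5 PFC libraries. All PFC points lie on the side of their tick, which the choice of genes required, and 12 of the 20 genes have both MC points there. The MC points rest on few positive cells.

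The gene lists split within these neurons, where 8.74% of all genes were higher and 7.36% lower in positive cells. Of 14 tested Gq and phospholipase C genes, Rgs2 was higher in positive cells (0.79, SE 0.09, edgeR adjusted p = 2.44e-11) and 7 were lower, among them Rgs4 (-0.48, SE 0.07), Itpr1, the inositol trisphosphate receptor gene (-0.43, SE 0.07), Plcb4 (-0.56) and Prkce (-0.24). Rgs4, also a regulator of Gq signalling, stayed lower in cluster 0 (-0.71), in cluster 5 (-0.58) and in thinned cells (-0.52, edgeR adjusted p = 8.23e-06). Rgs2 was higher in cluster 5 (0.82) and in thinned cells (0.57) and stood at 0.23 in cluster 0 (adjusted p = 0.454). Itpr1 did not pass in thinned cells (-0.45, adjusted p = 0.0511). The list's median was -0.17, against -0.00 over all genes.

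Of 17 tested genes for peptide processing and dense core vesicles, 3 were higher and 6 lower, against 8.74% and 7.36% of all genes. The lower ones included Vgf, a granin-family precursor (-0.79, SE 0.09, edgeR adjusted p = 7.21e-11), Ptprn (-0.32), Cadps (-0.35) and Pam, the amidating enzyme (-0.27). Vgf did not pass in thinned cells (-0.31, edgeR adjusted p = 0.555). Pam had the opposite sign in thinned cells (0.11, adjusted p = 0.811) and in cluster 0 (0.05, adjusted p = 0.893). The higher ones were Pcsk1n (0.19), Chgb (0.28) and Syt4 (0.14). Of 7 other neuropeptide genes, Adcyap1 and Cck (-0.14) were lower and none was higher.

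Of 16 activity-regulated genes, 4 were higher and 5 lower, against 8.74% and 7.36% of all genes. Besides Npas4 and Fos, Junb (0.60) and Egr4 (0.51) were higher, and Egr4 had the opposite sign in cluster 0 (-0.06, edgeR adjusted p = 0.856). Nptx2, a secreted pentraxin (-0.61, SE 0.12), Bdnf (-0.38, SE 0.07), Homer1 (-0.27) and Egr3 (-0.28) were among the lower. Nptx2 stayed lower in thinned cells (-1.03, adjusted p = 0.00461) and in clusters 0 and 5 (-0.62 and -0.78). Junb (0.29, edgeR adjusted p = 0.0535) and Bdnf (-0.27, adjusted p = 0.496) did not pass in thinned cells. Of 22 layer factors, Bhlhe22 was higher (0.54, SE 0.08, and 0.24 in thinned cells with an edgeR adjusted p of 0.555) and 5 were lower, among them Rorb (-1.09), a gene of the middle layers, and Cux1 (-0.52).

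In L6 CT-like neurons fewer genes were called than in L2/3 IT-like neurons. Cell numbers differed and were not matched, so the counts of calls do not compare the subtypes. Among 311 positive and 1218 negative cells, 65 of 7827 genes (0.83%) were higher and 74 (0.945%) lower (1.78% in all), DESeq2 called 35, and thinned cells gave 4 of 3018. The total was 74 without PFC CTRL replicate 1 and 72 without PFC DTA replicate 3. Marcksl1, a membrane and actin-binding protein gene, had 301.4, 444.4, 289.7, 332.1 and 339.1 CPM in positive cells and 128.8, 240.5, 107.4, 251.1 and 146.7 CPM in negative cells. Its sums in positive cells were higher in 5 of 5 libraries, which the choice of named genes required, and did not overlap those in negative cells. Its log2 difference was 0.95 (SE 0.10, edgeR adjusted p = 4.11e-09), and 0.59 in thinned cells, where it did not pass (adjusted p = 0.262).

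The cell adhesion gene Ntm (0.93, SE 0.12), the surface glycoprotein gene Cd24a (0.96, SE 0.14) and Etv1 (0.79, SE 0.17), a transcription factor, were also higher in Grp-positive L6 CT-like neurons. In thinned cells 9 of the 20 named genes could be tested, and Ntm (1.10, edgeR adjusted p = 0.000242) was the 1 of them that passed. Cd24a (0.76, adjusted p = 0.509) and Etv1 (0.89, adjusted p = 0.38) did not. The difference in Ntm was not shared by the MC: its values there went the other way, at 135.3 against 179.2 CPM and 276.9 against 325.8 CPM. The largest differences downward were in Nrp2, the semaphorin receptor neuropilin 2 (-1.91, SE 0.31), and Ctgf, a matricellular protein gene (-1.81, SE 0.24). Ctgf had 14.98, 19.9, 29.97, 10.9 and 11.9 CPM in positive and 54.4, 38.5, 35.8, 35.8 and 70.2 CPM in negative cells, and in the MC 0 counts in positive cells against 35.3 and 14.9 CPM. Ctgf is a leading gene of cluster 9, the L6 CT-like cluster with the lowest PFC Grp. Of the 20 genes named here, 14 had the same direction in both MC libraries, whose L6 CT-like neurons held 233 Grp UMIs in 684 cells.

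Read against 1.78% of all genes called in L6 CT-like neurons, the 5 lists had 1 of 12, 3 of 17, 1 of 5, 3 of 14 and 3 of 18 tested members called, in the order Gq signalling, peptide processing, other neuropeptides, activity and layer factors. Their medians were 0.03, -0.14, 0.38, -0.38 and 0.11 on the log2 scale, against -0.003 over all genes. Scg2, the secretogranin 2 gene, was lower in positive cells (-0.97, SE 0.13, edgeR adjusted p = 2.19e-07), as were Ptprn and Pcsk2, out of 17 peptide-processing genes tested. Scg2 did not pass in thinned cells (-0.48, adjusted p = 0.715), and Pcsk2 (-0.30) had the opposite sign in thinned cells (0.10, adjusted p = 0.928). Nppc was higher (0.62, SE 0.14) among 5 other neuropeptide genes, and stood at 0.75 in thinned cells (edgeR adjusted p = 0.489). Nptx2 (-0.90, SE 0.15), Nr4a2 (-0.84) and Fosb (-0.70) were lower and none was higher among 14 activity genes. Nptx2 did not pass in thinned cells (-0.64, edgeR adjusted p = 0.781). Prkcb (0.32) alone passed among 12 Gq and phospholipase C genes. Among 18 layer factors, Etv1 (0.79) and Lmo4 (0.24) were higher and Tbr1 (-0.32) was lower.

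Over the 7741 genes tested in both subtypes, 1422 were called in L2/3 IT-like and 131 in L6 CT-like neurons, and 52 were called in both. That is 3.66% of the first list and 39.7% of the second. Over all genes tested in each subtype, 1.78% were called in L6 CT-like and 16.1% in L2/3 IT-like neurons. Of the 52, 34 had the same direction. Whether the overlap exceeds that of unrelated lists was not tested. The 2 comparisons share libraries but not cells.

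Within the L5/6 NP-like cluster, which had the highest level, 332 positive and 262 negative cells gave 8 of 5671 genes (0.141%), 7 higher (0.123%) and 1 lower (0.0176%). Junb (1.08, SE 0.18) and Fos (0.87, SE 0.19) were the members of the activity list among them. Without PFC DTA replicate 2 they stood at 0.41 and 0.11 (edgeR adjusted p = 1.0 for each), and in thinned cells at 0.82 (adjusted p = 0.199) and 0.32 (adjusted p = 0.803), so neither call held in these settings. The named genes were Eif3m (1.16), Crym, a thyroid hormone-binding protein gene (0.79), Tceal9 and Ubb upward and Rbm6 (-1.28) downward. None of these 5 had the same direction in both MC libraries, where this cluster held 43 Grp UMIs in 123 cells. DESeq2 and thinned cells called 0, edgeR called 2 without PFC CTRL replicate 2, 0 without PFC DTA replicate 2 and 4 without PFC DTA replicate 3, and negative cells numbered as few as 6 in 1 library. The edgeR test had 2.268e+04 degrees of freedom for each named gene, so a gene's own spread over libraries had almost no weight.

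Over all PFC excitatory neurons the split mixes subtypes, and 1426 of 12320 genes (11.6%) were higher and 1255 (10.2%) lower in the 2910 positive than in the 6324 negative cells. DESeq2 called 1407, 1668 were called without PFC DTA replicate 2 and 2459 without PFC DTA replicate 3. The protocadherin gene Pcdh8 was the largest upward, with 50.9, 63.4, 69.8, 56.3 and 75.3 CPM in positive and 12.1, 30.3, 30.7, 21.1 and 29.5 CPM in negative cells. Its summed level in the positive cells of every library was above that in the negative cells of all, and its log2 difference was 1.37 (SE 0.09, edgeR adjusted p = 5.94e-11). Lypd1, Vat1l, Nos1, Wfs1, Bhlhe22 and Matn2 were among the other 9 upward. Cryab (-1.45, SE 0.10), the small heat shock protein alpha B crystallin, Rmst (-1.20) and Bok (-1.09) led the 10 downward. In thinned cells all 20 could be tested and 15 passed. Lypd1 (1.24, edgeR adjusted p = 0.117), Vat1l (0.01, adjusted p = 0.989), Nos1 (0.55, adjusted p = 0.154), Necab2 (0.51, adjusted p = 0.0846) and Cntnap4 (-0.18, adjusted p = 0.71) did not. In the MC Cryab went the other way, at 212.3 against 108.3 CPM and 84.7 against 47.0 CPM.

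Between subtypes the layer factors moved in both directions. Of 23 tested, 7 were higher in Grp-positive cells and 8 lower, against 11.6% and 10.2% of all genes. Those higher included Pou3f1 (1.18), Bhlhe22 (0.90), Fezf2 (0.59, SE 0.06) and Bcl11b (0.52, SE 0.06), the last 2 of which specify deep-layer projection neurons. Those lower included Rorb (-0.92), Foxp2 (-0.65), Tbr1 (-0.54, SE 0.06) and Sox5. Of 18 peptide-processing genes, 9 were lower and none higher, with Vgf (-0.42), Ptprn (-0.28), Chga (-0.37) and Cpe (-0.20) of smallest p. Chga had the opposite sign in thinned cells (0.07, edgeR adjusted p = 0.838). Of 16 Gq and phospholipase C genes, 4 were higher and 5 lower, and Trpc5 (0.38) had the opposite sign in thinned cells (-0.059).

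A last description asked which genes follow Grp from cluster to cluster. Across 12 neuron clusters of the PFC, 11 of them excitatory, Pearson's r of log2(CPM + 1) was computed for 9101 genes. The clusters share libraries, so these values carry no p. Among the 10 highest were Camkv, a kinase-like synaptic protein gene (0.89), Ccdc126 (0.88), the homeobox gene Meis2 (0.88), Eefsec (0.87) and Nppc (0.87), followed by Tekt5, Ift57, Htra2 and Peak1 (0.86 to 0.84). The same 10 genes had r of 0.352 to 0.863 over 9 MC clusters (median 0.657), against a median of 0.009 over all genes there.

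Nppc shows what such a likeness amounts to. It had 174 CPM in the L5/6 NP-like cluster, 151 CPM in the highest L2/3 IT-like cluster, 45.2 CPM in L5 IT-like and 41.2 CPM in L6 IT-like neurons, where Grp had 484, 232, 17.1 and 21.2 CPM. It also had the lower MC level given above, and was higher in Grp-positive cells of L6 CT-like neurons, which thinned cells did not keep as a call. Over all excitatory neurons it was higher as well (0.22, edgeR adjusted p = 0.0268). It did not pass in L2/3 IT-like (0.21, edgeR adjusted p = 0.0818) or L5/6 NP-like neurons (0.17, adjusted p = 0.932). Of the 10 genes, 9 stayed in the top 10 with a pseudocount of 10 and 8 without PFC DTA replicate 3, 1 was in the top 10 of the MC and 0 were in the top 10 over excitatory clusters alone, so the ranking rests in part on the 1 inhibitory cluster.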

How the data were processed

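The deposited tables hold UMI counts per gene and cell for 7 libraries, whole numbers in every cell tested; depth per library is given above. Cell Ranger 3.0.2, Seurat and mm10 are named in the submitters' processing notes, without their roles. Members and gene lists were chosen with earlier results of these data known.

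Doublets were called with Scrublet in scanpy 1.11.5 (its threshold found 0 in PFC DTA replicate 3, so the 295 top-scoring cells were taken) and removed; a filter at 200 genes and 20% mitochondrial counts removed no other cell. Cells were clustered without Grp and Grpr (2000 variable genes, 30 principal components, 20 neighbours, leidenalg 0.10.2, resolution 1.0, seed 1). Excitatory and inhibitory cells were clustered again with the genes centred per library, which the first clustering did not do. A cluster was named from at least 3 detected markers, at 20 CPM and 2-fold above the others; 6 excitatory clusters stayed unnamed.

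Counts were summed per library and cell set and compared by the quasi-likelihood test of edgeR 4.0.16 (robust, TMM, filterByExpr at 10 counts, Benjamini-Hochberg at 0.05; genotype a term in the area fit). DESeq2 1.42.0 was the second tool. Shares used cells thinned to 2000 UMIs, leaving out shallower ones. Named genes are the 10 with the largest fold in each direction among those called, with the same sign in 5 PFC libraries and a mean of 20 CPM; lists name up to 4 called members each way by p. The fits in L2/3 IT-like and L6 CT-like neurons and in single clusters were chosen after seeing the data. On simulated data, the genotype fit of excitatory neurons recovered 71 of 100 genes changed 2-fold and the L5/6 NP-like fit 39 of 100. Some genes and results are not reported here.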

Additional observations from a re-analysis of the deposited data

How the results depend on the processing

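Between genotypes, calls were 0 to 7 in excitatory neurons, 0 to 11 in L5/6 NP-like and 0 to 5 in L2/3 IT-like neurons with 1 library left out; with no filter they were 8 and 24 in the other 2 sets of cells. The Grp log2 difference ran from -0.10 to 0.11, -0.087 to 1.06 and -0.32 to 0.031 with 1 library left out, and was -0.004 with library totals in excitatory neurons. Replicate numbers do not pair the libraries (r of deviations 0.117 and 0.116 in 2 pairs). With the replicate block, 29 genes were called in L5/6 NP-like and 8 in L2/3 IT-like neurons, and Grp stood at -0.10 in excitatory and -0.008 in L5/6 NP-like neurons. The share of Grp-positive excitatory neurons, DTA minus CTRL, was 1.64 percentage points as deposited and -2.24 to 0.77 with 1 library left out; in L5/6 NP-like neurons it was -1.54 to 28.3.

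Area calls ran from 92 to 930 with 1 library left out, and the Grp difference from -2.84 to -2.58; with the PFC mix it was -2.51. Grp-positive against negative calls over all excitatory neurons were 1407 with DESeq2, 466 in thinned cells and 1668 to 2548 with 1 library left out. In L2/3 IT-like neurons they were 580, 48 and 852 to 1514, with 243 in cluster 0 and 260 in cluster 5. In L6 CT-like neurons they were 35, 4 and 72 to 172. In L5/6 NP-like neurons they were 0 with DESeq2, 0 in thinned cells, 3 with no filter, 17 at 2 UMIs, 4 without centring and 0 to 10 with 1 library left out. Likeness genes kept in the top 10 were 0 over excitatory clusters and 1 in the MC.

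Among values of single genes, opposite signs were found for Trpc5 (-0.059) and Chga (0.067) in thinned excitatory neurons, Pam (0.11) in thinned L2/3 IT-like neurons and Pam (0.049) and Egr4 (-0.061) in cluster 0, and Pcsk2 (0.10) in thinned L6 CT-like neurons. Of the other values of single genes and subtypes, 1308 kept direction and call, 252 lost the call and 19 had no adjusted p from DESeq2. Among the values of the main results, 107 stayed the same, 39 moved and 11 were reversed. The cause was not tested, except that thinning leaves fewer genes tested.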
